A study of Mus musculus with 8 samples.

Results

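Aminoacyl-tRNA synthetases are the enzymes that load each amino acid onto its transfer RNA (tRNA). Their transcripts were followed in livers of mice bred to delete Sco1 in hepatocytes and of control mice. The list held 36 genes, 20 for cytosolic enzymes and 16 for mitochondrial ones. A gene counted as measured when the array annotation gave a probe set to it alone, and where a gene had several such probe sets the one of highest mean stood for it. By that rule 34 of the 36 were measured, 18 cytosolic and 16 mitochondrial, among 22180 genes tested. Aars shared its probe set with another gene, no probe set carried the symbol of Dars in the annotation used here, and neither was analysed. Mars was annotated as Mars1.

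Sco1 is a copper-binding protein of mitochondria that cytochrome c oxidase needs for its assembly. In the 4 knockout mice both Sco1 alleles were floxed and the Cre recombinase was driven by the albumin promoter, which works in hepatocytes. The 4 mice called wild-type here were controls of 2 kinds by their genotype labels: 1 and 3 had the same Cre and a single floxed allele, whereas 2 and 4 had no Cre and both alleles floxed. Their titles name Sco1 fl/fl for all 4. All 8 were C57BL/6N mice whose livers were taken at 27 days of age, and each liver gave 1 Affymetrix whole-transcript array. Recombination was not measured by cell type in these data.

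Most synthetases pair a single amino acid with its own tRNAs. The cytosolic set serves the translation of nuclear transcripts and the mitochondrial set, encoded in the nucleus by separate genes that mostly end in 2, serves the translation of mitochondrial DNA transcripts. The genes Gars and Kars are exceptions, since each encodes both a cytosolic and a mitochondrial enzyme, and they are counted here as cytosolic. Glutamine has no mitochondrial synthetase: Ears2 loads glutamate onto the mitochondrial glutamine tRNA and an amidotransferase converts it. When the transcription factor ATF4 is induced by stress, many cytosolic synthetase genes rise in cultured cells together with genes of amino acid synthesis and uptake.

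Expression is given in log2 units of the deposited RMA values, so a difference of 1 is a doubling, and differences are knockout minus wild-type. Array medians lay between 5.79 and 5.89. Sco1 itself stood at 7.48, 7.62, 7.72 and 7.56 in knockout mice 1 to 4, against 7.84, 7.93, 8.19 and 8.04 in wild-type mice 1 to 4. Every knockout value lay below every wild-type value, with a difference of -0.41 ± 0.09 (SE; limma with Benjamini-Hochberg adjustment over all genes, adjusted p = 0.0633). All 10 hepatocyte markers were measured and none passed the adjusted p threshold of 0.05, their mean level lying between 12.71 and 12.77 in knockout and between 12.78 and 12.80 in wild-type livers. In whole liver RNA, fewer cells of a type and less RNA per cell cannot be told apart.

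Most synthetase transcripts differed little between knockout and wild-type livers. At an adjusted p under 0.05, 1 of the 34 measured genes fell, the mitochondrial cysteine enzyme Cars2, and none rose, while 1.15% of all genes tested passed, 0.433% higher and 0.717% lower. None of the 18 cytosolic genes passed in limma. An unadjusted p under 0.05 was held by 4 of the 34 genes, Sars on the higher side and Qars, Cars2 and Hars2 on the lower side, against 16.7% of all genes, 8.61% higher and 8.06% lower. Groups did not overlap for 5 of the 34 genes, Sars on the higher side and Qars, Kars, Cars2 and Hars2 on the lower side, against 10.7% of all genes tested, 5.26% higher and 5.49% lower. The members' share, 14.71%, is close to the 13.95% among the brighter 11090 genes, of which 493 were apart on the higher side and 1054 on the lower side. Negative differences were held by 13 of 18 cytosolic and 11 of 16 mitochondrial genes, and by 55.49% of the brighter genes. With quantile normalization repeated, Farsa, Farsb, Rars and Yars of the 13 cytosolic genes turned positive, at 0.041, 0.022, 0.026 and 0.011, and the cytosolic median was 0.0025.

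The cytosolic genes had a median difference of -0.03, ranging from -0.30 for Qars to 0.33 for Sars. The mitochondrial genes had a median of -0.07, ranging from -0.37 for Cars2 to 0.14 for Wars2. Over all genes tested the median was 0.03, and over the brighter genes it was -0.02. The 95% interval of the difference lay within 0.5 log2 units of 0 for 16 of the 18 cytosolic genes, all but Sars and Tars. It did so for 15 of the 16 mitochondrial genes, all but Cars2, and for 18935 of all 22180 genes tested.

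**Figure D1:**
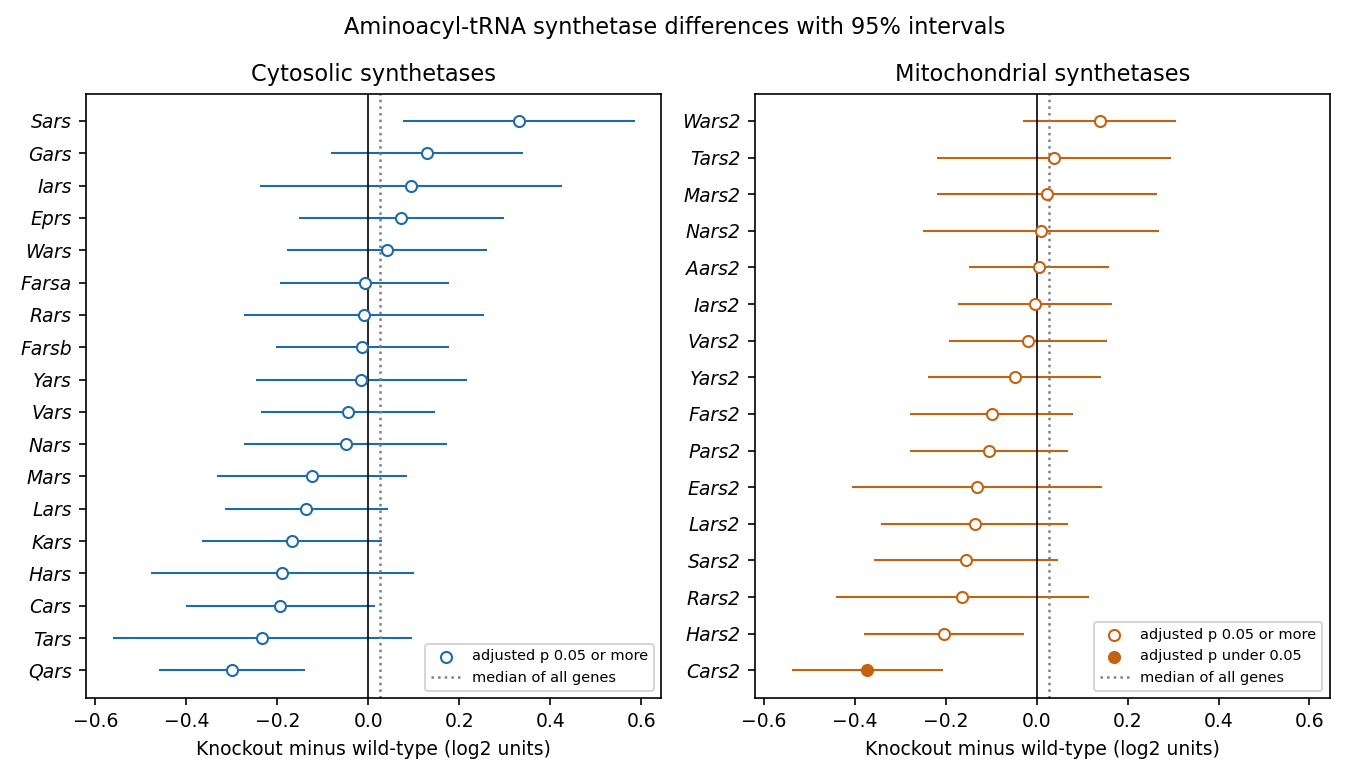
Knockout minus wild-type difference in log2 units on the x axis for the 18 cytosolic (left) and 16 mitochondrial (right) synthetase genes, with 95% intervals from limma (4 mice in each group); filled points have an adjusted p under 0.05 and the dotted line is the median of all genes tested. Cars2, at -0.37, is the single filled point, and most intervals cross 0.

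Cars2 loads cysteine onto mitochondrial tRNA and is also known to make cysteine persulfides. Its probe set (17507440) read 8.02, 8.16, 8.17 and 8.04 in knockout mice 1 to 4, against 8.38, 8.45, 8.55 and 8.4996 in wild-type mice 1 to 4. The 4 knockout mice were all lower, with a gap of 0.21 between the nearest mice of the groups. Cars2 averaged 8.10 ± 0.08 in knockout and 8.47 ± 0.07 in wild-type livers (SD, n = 4 each), a difference of -0.37 ± 0.08 (SE; limma with Benjamini-Hochberg adjustment, adjusted p = 0.0437). The knockout level was 77.3% of the wild-type level, with a 95% interval of 68.9% to 86.7%. The difference was -0.38 against the Cre-free controls (adjusted p = 0.191) and -0.37 against the controls with Cre and 1 floxed allele (adjusted p = 0.215), neither of which passed, while these control genotypes differed by -0.01 ± 0.11 (SE). The call of Cars2 was lost with any 1 of the 8 arrays left out (adjusted p 0.0618 to 0.123), although the difference stayed between -0.40 and -0.35. It was also lost under repeated quantile normalization (adjusted p = 0.0812), with a replicate block (0.0808), with the Y-linked covariate (0.0881) and without both mouse 1 arrays (0.113).

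The promoter of Cars2, 250 bases before to 50 after the annotated start, is shown because Cars2 was the gene that passed. It is taken from RefSeq, build GRCm38.p6, at chr8:11550722-11551021 on the minus strand, written 5′ to 3′.
Cars2: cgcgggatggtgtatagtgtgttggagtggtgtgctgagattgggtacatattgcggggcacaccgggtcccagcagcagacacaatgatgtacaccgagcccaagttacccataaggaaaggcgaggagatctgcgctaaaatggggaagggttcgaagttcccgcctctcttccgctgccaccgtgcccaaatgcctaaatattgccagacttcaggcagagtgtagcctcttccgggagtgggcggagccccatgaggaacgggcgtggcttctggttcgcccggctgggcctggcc
No copy of TGATGNAA, the core of the element that ATF4 binds with a CCAAT/enhancer-binding partner, was in this window on either strand, and capitals would mark it.

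Among the other mitochondrial genes Hars2, for histidine, came next. It read 8.55, 8.42, 8.33 and 8.53 in knockout mice 1 to 4, against 8.56, 8.65, 8.73 and 8.71 in wild-type mice 1 to 4. The groups did not overlap, but the nearest mice lay 0.01 apart, and the difference of -0.20 ± 0.08 (SE) missed the threshold (limma with Benjamini-Hochberg adjustment, adjusted p = 0.238). Hars, the cytosolic histidine enzyme, is the neighbouring gene of Hars2 on chromosome 18, the single case of 2 measured synthetase genes lying next to each other in the RefSeq gene table. Its difference was -0.19 ± 0.13 (SE, adjusted p = 0.499), and its knockout values spread from 8.88 to 9.62, against 9.43 to 9.53 in wild-type livers.

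Sars2, the mitochondrial serine enzyme, read 8.61, 8.52, 8.63 and 8.31 in knockout mice 1 to 4, against 8.76, 8.60, 8.58 and 8.75 in wild-type mice 1 to 4. The ranges overlapped, and the difference was -0.15 ± 0.09 (SE, adjusted p = 0.423). Wars2, for tryptophan, read 6.86, 6.92, 6.996 and 7.08 in knockout mice 1 to 4, against 6.85, 6.86, 6.74 and 6.84 in wild-type mice 1 to 4. Only knockout mouse 1 reached into the wild-type range, and the positive difference of 0.14 ± 0.08 (SE) did not pass (adjusted p = 0.39).

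The mitochondrial probe sets of highest signal were those of Iars2, Yars2 and Nars2, for isoleucine, tyrosine and asparagine. Iars2 read 9.74, 9.71, 9.77 and 9.94 in knockout mice 1 to 4, against 9.83, 9.78, 9.83 and 9.74 in wild-type mice 1 to 4. Yars2 read 8.84, 8.85, 8.95 and 9.13 in knockout mice 1 to 4, against 9.03, 8.97, 9.07 and 8.89 in wild-type mice 1 to 4. Nars2 read 8.82, 8.59, 8.43 and 8.66 in knockout mice 1 to 4, against 8.86, 8.60, 8.66 and 8.34 in wild-type mice 1 to 4. The groups overlapped throughout in all 3, and their differences of -0.003, -0.05 and 0.01 were smaller than the spread between mice. The remaining mitochondrial genes, for alanine, glutamate, phenylalanine, leucine, methionine, proline, arginine, threonine and valine, had differences between -0.16 for Rars2 and 0.04 for Tars2, none of which passed.

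On the cytosolic side the smallest p belonged to Qars, the glutamine enzyme and a member of the multi-synthetase complex (probe set 17521794). It read 9.62, 9.81, 9.70 and 9.63 in knockout mice 1 to 4, against 10.003, 9.96, 10.02 and 9.98 in wild-type mice 1 to 4. All 4 knockout mice were lower, at 81.2% of the wild-type level with a 95% interval of 72.7% to 90.8%. The difference of -0.30 ± 0.07 (SE) missed the threshold (limma with Benjamini-Hochberg adjustment, adjusted p = 0.0772). It passed under 3 of 21 alternative settings, a trended robust variance and both filters on dim genes (adjusted p 0.0381 to 0.049), and ranged up to 0.312 over all 21.

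Kars and Cars, for lysine and cysteine, had negative differences that did not pass. Kars read 9.38, 9.71, 9.65 and 9.69 in knockout mice 1 to 4, against 9.79, 9.86, 9.74 and 9.71 in wild-type mice 1 to 4. The groups were separated by less than 0.01, and the difference of -0.17 ± 0.09 (SE, adjusted p = 0.376) was -0.09 without knockout mouse 1. Cars read 8.40, 8.75, 8.52 and 8.70 in knockout mice 1 to 4, against 8.91, 8.80, 8.69 and 8.74 in wild-type mice 1 to 4. Knockout mice 2 and 4 lay within the wild-type range, and the difference was -0.19 ± 0.09 (SE, adjusted p = 0.336).

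Sars, which loads serine onto cytosolic tRNAs for serine and selenocysteine, had the largest positive difference of the list (probe set 17409328). It read 10.03, 10.21, 10.07 and 10.60 in knockout mice 1 to 4, against 9.89, 9.88, 9.89 and 9.91 in wild-type mice 1 to 4. Every knockout mouse lay above the wild-type mice, which were nearly equal, and knockout mouse 4 stood above the other knockout mice. The difference of 0.33 ± 0.12 (SE) did not pass (limma with Benjamini-Hochberg adjustment, adjusted p = 0.192). It was 0.21 without knockout mouse 4 (adjusted p = 0.206) and 0.20 with a covariate for Y-linked expression (adjusted p = 0.264). That mouse also stood apart in Uty, a Y-linked gene, which read 8.72, 8.65, 8.48 and 7.23 in knockout mice 1 to 4, against 8.71 to 8.83 in wild-type mice. Kdm5d and Eif2s3y, also Y-linked, were lowest in that mouse too, at 7.37 and 7.49, so the covariate largely marks that mouse. The Sars differences of 0.21 and 0.20 are therefore not separate checks. Whether the low Y-linked expression of knockout mouse 4 had a part in the Sars difference was not tested further.

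**Figure D2:**
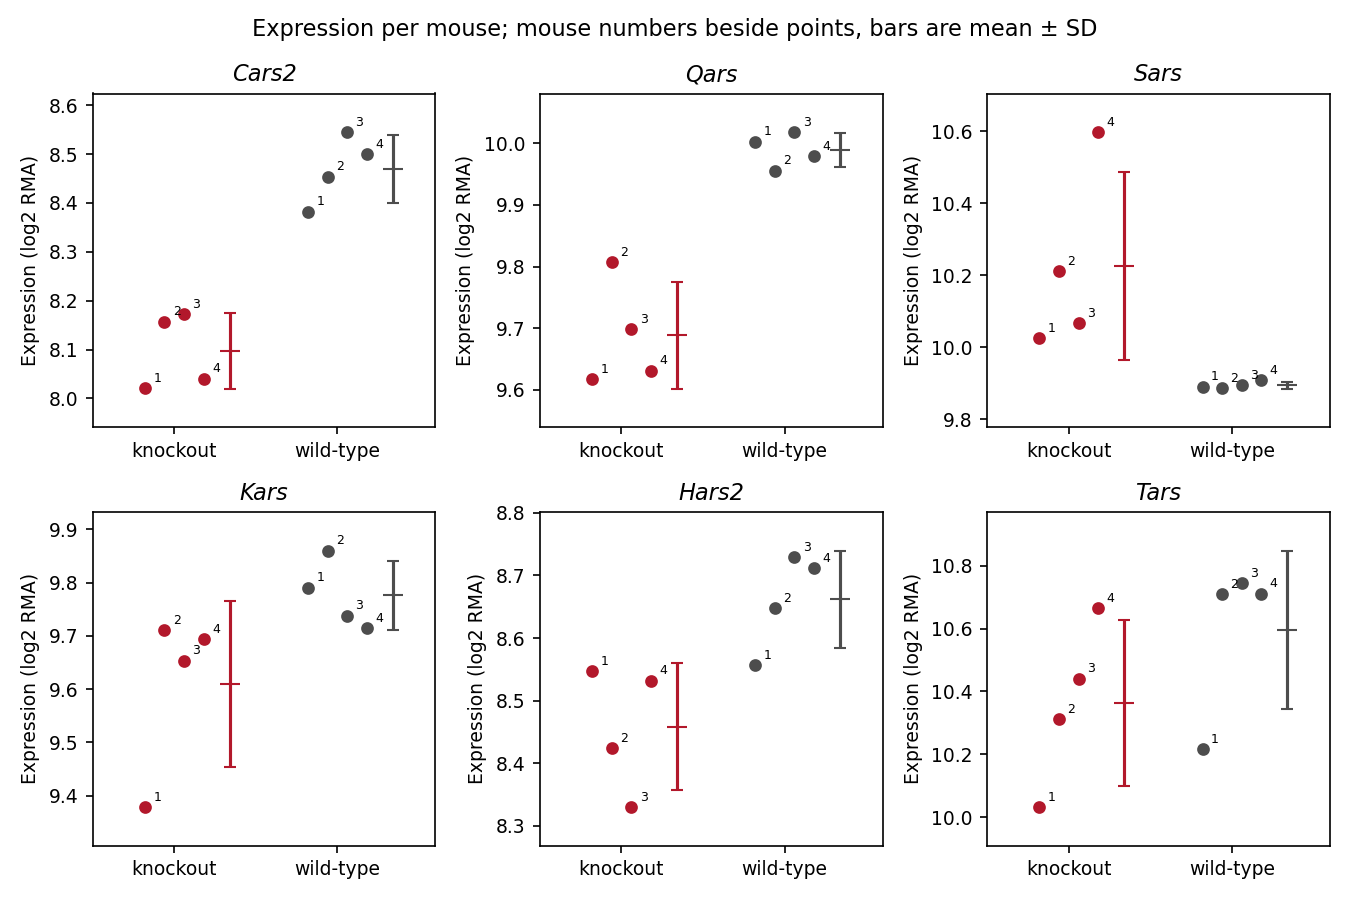
Expression in log2 RMA units (y axis, not starting at 0) of 6 synthetase genes in the 4 knockout mice (red, left) and the 4 wild-type mice (grey, right), numbered by mouse, with bars for the group mean ± SD. The groups are apart for Cars2, Qars and Sars, nearly touch for Kars and Hars2, and overlap for Tars, where mouse 1 is lowest in both groups.

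The cytosolic probe sets of highest signal were those of Nars, Tars and Iars, for asparagine, threonine and isoleucine. Nars read 10.90, 11.14, 11.12 and 11.36 in knockout mice 1 to 4, against 11.06, 11.23, 11.27 and 11.16 in wild-type mice 1 to 4. Tars read 10.03, 10.31, 10.44 and 10.67 in knockout mice 1 to 4, against 10.22, 10.71, 10.74 and 10.71 in wild-type mice 1 to 4. Mouse 1 was lowest of its group in both genes and in both groups. Iars read 10.17, 10.30, 10.42 and 10.74 in knockout mice 1 to 4, against 9.90, 10.43, 10.46 and 10.45 in wild-type mice 1 to 4. Here too mouse 1 was lowest in each group, and the differences of -0.05 for Nars, -0.23 for Tars and 0.09 for Iars did not pass (adjusted p 0.462 to 0.84). The remaining cytosolic genes, Eprs, Farsa, Farsb, Gars, Hars, Lars, Mars, Rars, Vars, Wars and Yars, had differences between -0.19 for Hars and 0.13 for Gars.

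The knockout livers differed among themselves in their cytosolic synthetases. Knockout mouse 1 held the lowest knockout value in 16 of the 18 genes, against 27.3% of all genes tested, and knockout mouse 4 the highest in 11 of 18, against 26.9% of all genes. Wild-type mouse 1 was lowest of its group in 9 of 18, against 26.4% of all genes. These shares include dim genes, and they were not taken over the brighter genes. The mean level of the brighter 11090 genes was 8.579 to 8.619 in knockout mice and 8.63 to 8.635 in wild-type mice. Both mouse 1 arrays stood apart in Dbp, a transcription factor of the circadian clock output, at 9.66 in the knockout and 9.86 in the wild-type, against 6.87 to 7.33 in the other 6 mice. The part of sampling time in the synthetase levels was not tested, and the labels used here give no collection time. The median difference of the cytosolic genes was 0.01 without knockout mouse 1, with 11 of 18 positive, and -0.10 without knockout mouse 4, with 4 of 18 positive. Without both mouse 1 arrays it was -0.02, and that of the mitochondrial genes was -0.05.

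Averaged over the 18 cytosolic genes, after subtracting the mean over the 8 arrays from each gene, the level was -0.22, 0.01, -0.02 and 0.14 in knockout mice 1 to 4, against -0.08, 0.05, 0.06 and 0.05 in wild-type mice 1 to 4. The 16 mitochondrial genes averaged -0.10, -0.04, -0.03 and 0.02 in knockout mice 1 to 4, against 0.01, 0.01, 0.08 and 0.04 in wild-type mice 1 to 4. Both averages were lowest in knockout mouse 1, and the cytosolic average spread more widely over the knockout mice (SD 0.15) than over the wild-type mice (SD 0.07). The SD over knockout mice exceeded that over wild-type mice in 15 of the 18 cytosolic genes and 12 of the 16 mitochondrial genes, and in 64.72% of the brighter genes. The median SD of the cytosolic genes was 0.18 in knockout and 0.09 in wild-type livers, and that of the mitochondrial genes was 0.10 in knockout and 0.09 in wild-type livers.

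**Figure D3:**
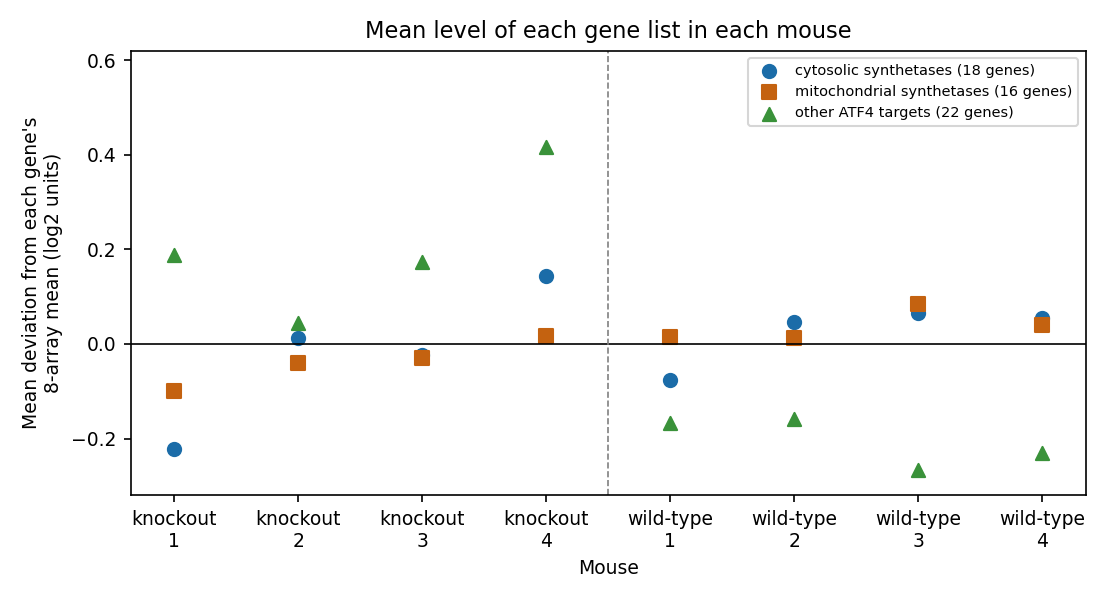
Mean deviation from each gene's mean over the 8 arrays, in log2 units (y axis), for each mouse (x axis, 4 knockout mice left of the dashed line and 4 wild-type mice right of it), over 18 cytosolic synthetases (circles), 16 mitochondrial synthetases (squares) and 22 other ATF4 targets (triangles). The other ATF4 targets lie above 0 in all knockout mice and below 0 in all wild-type mice. That list was chosen with these results in view and holds Nupr1, with a difference of 2.41. The cytosolic synthetases lie between -0.22 and 0.14 in knockout mice and around 0 in wild-type mice.

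Enzymes for the same amino acid were set side by side in 16 pairs of a cytosolic and a mitochondrial gene, Eprs, which serves glutamate and proline, and Fars2, which faces both Farsa and Farsb, entering in 2 pairs each. Both genes had negative differences in 8 pairs and both positive ones in 1, Wars with Wars2, and the signs were opposite in 7. The cytosolic difference was the higher of the pair in 10 of 16, with a median of 0.06 for the cytosolic minus the mitochondrial difference. Serine gave the widest pair, at 0.33 for Sars and -0.15 for Sars2, and its within-array gap between the 2 probe sets was larger in every knockout mouse than in any wild-type mouse, the single such pair of the 16. Threonine lay furthest the other way, at -0.23 for Tars and 0.04 for Tars2. Cysteine was negative for both genes, at -0.19 for Cars and -0.37 for Cars2. These are descriptions, and no pair was tested.

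**Figure D4:**
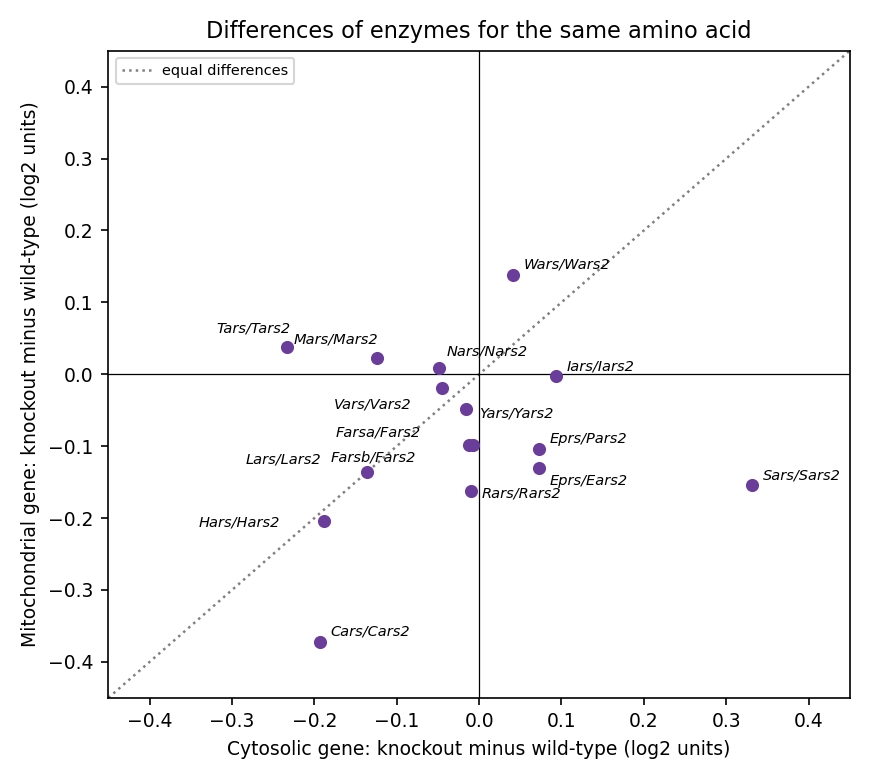
Knockout minus wild-type difference in log2 units of the cytosolic gene (x axis) against that of the mitochondrial gene for the same amino acid (y axis), 16 pairs, each from 4 mice in each group; the dotted line marks equal differences. Sars/Sars2 lies furthest below the line, Tars/Tars2 furthest above it, and Cars/Cars2 has both values below 0.

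Each kind of control was also set against the knockout livers in a fit with 3 groups. Against the 2 Cre-free controls none of the 34 genes passed in limma, with 0.212% of all genes passing, 0.0676% higher and 0.144% lower. Against the 2 controls with Cre none passed either, with 0.131% of all genes passing, 0.0586% higher and 0.0721% lower. Qars differed by -0.28 and -0.32 in these 2 comparisons, which share the knockout mice, and Sars by 0.33 and 0.33. Between the kinds of control no gene of the whole array passed, 0.0%, and the widest difference among the 34 genes was 0.29, for Nars2.

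Of the 12 cytosolic synthetase genes listed as induced through ATF4 in cultured cells, 11 were measured, and none passed in either direction. Their median difference was -0.02, with 5 positive and 6 negative. It was 0.08 without knockout mouse 1, with 7 positive and 4 negative, and -0.08 without knockout mouse 4, with 3 positive and 8 negative. The other 7 cytosolic genes, Farsa, Farsb, Hars, Kars, Qars, Rars and Vars, all had negative differences, with a median of -0.04. Without knockout mouse 1 their median was 0.0058, with 4 of 7 positive, and without knockout mouse 4 it was -0.11, with 1 of 7 positive. Both against the controls with Cre and under repeated quantile normalization 3 of 7 were positive, so neither list kept its balance of signs. Among the 11, the highest upper limit of a 95% interval was 0.59, for Sars, and 0.43, for Iars, among the rest. In the same livers 4 of 22 other measured ATF4 targets rose, against 0.433% of all genes tested, and none fell. Their median was 0.32, and that list was chosen with these results in view. Asns, asparagine synthetase, read 8.20, 8.47, 8.37 and 8.51 in knockout mice 1 to 4, against 7.33, 7.96, 7.91 and 7.69 in wild-type mice 1 to 4. It rose by 0.67 ± 0.13 (SE, adjusted p = 0.0437), while Nars, which uses the asparagine that Asns makes, stood at -0.05 ± 0.10. Psat1 of serine synthesis rose by 0.77 ± 0.14, beside 0.33 ± 0.12 for Sars. The other targets that rose were Phgdh of serine synthesis, by 0.41 ± 0.09, and the stress-induced Nupr1, by 2.41 ± 0.24, and Atf4 itself stood at 0.08 ± 0.08. The average of the other ATF4 targets was 0.19, 0.04, 0.17 and 0.42 in knockout mice 1 to 4. It ranged from -0.27 to -0.16 in wild-type mice. Of the knockout mice, mouse 4 was highest in most cytosolic synthetases, and mouse 1 had the lowest cytosolic synthetase average of the 8 mice. Whether the averages of these lists moved together over mice was not tested.

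The 250 bases before and 50 after the annotated start were in the RefSeq table (GRCm38.p6) for 11 measured cytosolic and 15 measured mitochondrial genes, and not for Cars, Hars, Lars, Nars, Rars, Vars, Wars, Hars2 and Pars2. The motif TGATGNAA was searched on both strands, where N is any base. It occurred in 4 of the 11 cytosolic genes, Gars, Iars, Tars and Yars, in none of the 15 mitochondrial genes, in 8 of 20 other ATF4 targets and in 4.51% of all 27025 genes in the table. Per promoter, the share was 3.97% of 32851. A match describes the letters and does not show a site in use. The stretch around each match is printed 5′ to 3′ on the strand of the gene with the match in capitals, to let the 4 matches be compared. They lie at chr6:55037945-55038004 (plus strand, Gars), chr13:49682111-49682170 (plus, Iars), chr15:11399640-11399699 (minus, Tars) and chr4:129189880-129189939 (plus, Yars).
Gars: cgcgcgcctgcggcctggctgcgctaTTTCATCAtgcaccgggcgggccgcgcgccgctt
Iars: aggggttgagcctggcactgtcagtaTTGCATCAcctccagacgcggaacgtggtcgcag
Tars: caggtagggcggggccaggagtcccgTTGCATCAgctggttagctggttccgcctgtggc
Yars: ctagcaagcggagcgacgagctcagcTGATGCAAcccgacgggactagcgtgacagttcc
Counted from the annotated start, the first base of the match is at -30 in Gars, 8 in Iars, -15 in Tars and 4 in Yars. The motif reads on the opposite strand in Gars, Iars and Tars and on the strand of the gene in Yars. The differences of these 4 genes were 0.13 ± 0.10, 0.09 ± 0.15, -0.23 ± 0.15 and -0.02 ± 0.11 (SE) in the order Gars, Iars, Tars, Yars, and none passed.

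The promoter of Sars is shown for comparison, since Sars had the highest positive difference and its window held no such match. It lies at chr3:108445210-108445509 on the minus strand.
Sars: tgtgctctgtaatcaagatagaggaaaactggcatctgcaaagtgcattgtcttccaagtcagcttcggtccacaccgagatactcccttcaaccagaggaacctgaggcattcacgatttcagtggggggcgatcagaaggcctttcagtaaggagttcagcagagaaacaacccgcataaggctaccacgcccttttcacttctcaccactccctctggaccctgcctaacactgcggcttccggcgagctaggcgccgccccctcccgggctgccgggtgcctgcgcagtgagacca

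Grouped by structure, the 9 measured class I cytosolic enzymes, which bind ATP through a Rossmann fold, had a median difference of -0.04 and the 8 measured class II enzymes, built on an antiparallel sheet, a median of -0.03. Eprs holds a domain of each class and was left out of this grouping. The 7 measured enzymes of the multi-synthetase complex, a particle that gathers several cytosolic enzymes on scaffold proteins, had a median of -0.12, with 2 positive and 5 negative, and the 11 outside it a median of -0.02. Without knockout mouse 1 these medians were -0.04, with 3 of the 7 positive, and 0.02, and the class I and class II medians were 0.0061 and 0.011. Without knockout mouse 4 they were -0.14, with 0 of the 7 positive, and -0.08, and the class I and class II medians were -0.11 and -0.07. Of the scaffold genes Aimp1 stood at -0.11 ± 0.12 and Eef1e1 at 0.15 ± 0.09, and Aimp2 was not measured. None of these genes passed the threshold. Mtfmt, which formylates the mitochondrial initiator methionyl-tRNA made by Mars2, read 8.45, 8.40, 8.40 and 8.53 in knockout mice 1 to 4, against 8.76, 8.64, 8.58 and 8.65 in wild-type mice 1 to 4. Every knockout value was lower, but the difference of -0.21 ± 0.07 (SE) did not pass (adjusted p = 0.192), and Mars2 stood at 0.02 ± 0.11. The amidotransferase subunits Gatb, Gatc and Qrsl1, which complete the glutamine tRNA charged by Ears2, lay between -0.14 and 0.03 and did not pass, as did Ears2 at -0.13 ± 0.12.

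In the same livers 7 of 7 measured proliferation markers fell, against 0.717% of all genes tested. Their mean levels were 7.64 to 8.03 in knockout and 8.51 to 8.97 in wild-type livers. Of 8 measured interferon response genes 4 rose, against 0.433% of all genes tested. Their mean levels were 8.83 to 8.95 in knockout and 8.32 to 8.61 in wild-type livers. These lists were chosen with earlier results of these data known. Wars, which interferon induces in human cells, stood at 0.04 ± 0.10 (adjusted p = 0.869). No marker of macrophages (10 measured), lymphocytes (9), endothelium (8), stellate cells (8), cholangiocytes (5) or erythroid cells (4) passed. Mean lymphocyte marker levels were 6.40 to 6.80 in knockout and 6.27 to 6.34 in wild-type livers. Mean endothelial marker levels were 9.98 to 10.09 in knockout and 9.79 to 9.97 in wild-type livers. The ranges of mean levels overlapped for macrophages, stellate cells, cholangiocytes and erythroid cells. The part of these shifts in the Cars2 difference was not tested.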

How the data were processed

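Liver RNA of 4 knockout and 4 wild-type mice was measured on 1 array each. The authors deposited log2 RMA values of 39137 probe sets, computed with oligo version 1.24, per the submitters' processing notes. The log2 scale was inferred from the method and the range of 1.28 to 13.88. Chip definition and build are not given in the sources used here. RMA equalises the distributions of the arrays and pulls large differences toward 0. Probe sets were named through the platform annotation, and 23521 had 1 gene symbol. The probe set of highest mean stood for each of 22180 genes.

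Differences were fitted over all genes in R version 4.3.3 with lmFit and eBayes of limma version 3.58.1 (two-sided, group as the single term) and adjusted by Benjamini-Hochberg, with a threshold of 0.05. A fit with 3 groups separated the control genotypes. The limma step was tested on simulated data with independent errors, without the shared shifts of single mice seen here. No conclusion is drawn from that run. Errors of differences are SEs and errors of group means are SDs. The number of arrays limits precision. Members and lists were chosen with earlier results of these data known. Values in every mouse are given for Sco1, for members that passed, for members whose groups did not overlap, for the 4 of smallest p and the 3 of highest mean in each class, and, chosen later, for Asns, Dbp, Mtfmt and Uty. Alternatives were the variance model, normalization, filters, probe set choice, array weights, mouse number as a block, a Y-linked covariate, each control genotype, both mouse 1 arrays left out, and each array left out in turn.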

Additional observations from a re-analysis of the deposited data

Results flagged for a closer look

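Values of the 34 genes were screened for single mice far from the others of their group, by Dixon's test on groups of 4. Of 68 groups 4 stood out, 5.88%, where chance flags about 1 in 20 of independent groups. The 68 groups came from the same 8 mice and were not independent, so no conclusion is drawn from that share. In Iars, wild-type mouse 1 read 9.90 and the other wild-type mice 10.43 to 10.46. In Tars, wild-type mouse 1 read 10.22 and the others 10.71 to 10.74. Lars2 read 7.79 in knockout mouse 1 and 8.11 to 8.14 in the other knockout mice. Farsa read 8.20 in knockout mouse 2 and 8.01 to 8.02 in the others. Knockout mouse 4 was high in Sars, at 10.60 against 10.03 to 10.21, but did not exceed the limit of that test.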

How the results depend on the processing

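Under 21 alternative settings no cytosolic or mitochondrial gene was called higher, and the genes called lower were Cars2 and Qars. Cars2 was called in 7 of 21 settings. It was not called, so that the count of lower mitochondrial genes was 0, after repeated quantile normalization (adjusted p = 0.0812), with mouse number as a replicate block (0.0808), with the Y-linked covariate (0.0881), against Cre-free controls (0.191), against controls with Cre and 1 floxed allele (0.215), without both mouse 1 arrays (0.113), and with any 1 array left out (count 0 to 0). The number of lower cytosolic genes was 1, Qars, with a trended robust variance and with each filter on dim genes, and 0 to 0 with 1 array left out. The median difference of the cytosolic genes ranged from -0.11 to 0.01, the highest value being that without knockout mouse 1, and that of the mitochondrial genes from -0.10 to -0.03. The cause was not tested.

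Differences near 0 changed sign in 16 of the 34 genes, none of them called. With repeated quantile normalization, the difference was 0.041 for Farsa, 0.022 for Farsb, 0.026 for Rars, 0.011 for Yars, 0.022 for Iars2 and 0.034 for Vars2. With arrays centred, the difference was -0.024 for Aars2, -0.0069 for Mars2 and -0.021 for Nars2. With array weights, the difference was -0.023 for Mars2. With the Y-linked covariate, the difference was -0.020 for Eprs, 0.017 for Farsa, 0.0035 for Farsb, -0.020 for Iars, -0.024 for Mars2, -0.0049 for Nars2 and -0.046 for Tars2. With Cre-free controls, the difference was -0.038 for Iars, -0.042 for Wars, 0.034 for Iars2, -0.040 for Tars2, 0.020 for Vars2 and 0.0097 for Yars2. With controls with Cre, the difference was 0.054 for Farsa, 0.020 for Farsb, 0.0051 for Vars, 0.0093 for Yars, -0.0094 for Aars2 and -0.14 for Nars2. With both mouse 1 arrays left out, the difference was 0.046 for Rars, 0.040 for Yars, 0.026 for Iars2, -0.068 for Mars2 and 0.048 for Vars2. With 1 array left out it ranged over -0.055 to 0.035 for Farsa, -0.072 to 0.025 for Farsb, -0.13 to 0.029 for Nars, -0.10 to 0.094 for Rars, -0.11 to 0.0061 for Vars, -0.081 to 0.078 for Yars, -0.054 to 0.022 for Iars2, -0.037 to 0.11 for Mars2, -0.082 to 0.090 for Nars2, -0.014 to 0.021 for Aars2, -0.021 to 0.11 for Wars, -0.013 to 0.13 for Eprs, -0.044 to 0.17 for Iars, -0.028 to 0.16 for Tars2 and -0.048 to 0.035 for Vars2.

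Over all genes, 96 were higher and 159 lower. Higher and lower counts were 159 and 300 with a trended robust variance, 155 and 301 above the 25th percentile of mean level, 15 and 32 against Cre-free controls, 13 and 16 against controls with Cre, and 28 and 37 without both mouse 1 arrays. Lower counts were 271 with centred arrays, 319 above the median level and 245 with array weights, and the higher count was 45 with the Y-linked covariate. With 1 array left out they were 29 to 65 higher and 60 to 119 lower, a fall of over 1.5 times except for higher genes without knockout mouse 2 and lower genes without knockout mouse 4. Same-numbered mice deviated together at correlations of -0.10 to 0.27, and 2 of 8 arrays correlated best with their own number, so the numbers were not treated as pairs. The highest of these correlations was that of the 2 mouse 1 arrays, which also stood apart in Dbp.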

Other observations

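Factors of translation on either side of the mitochondrial membrane, including those of elongation, release and ribosome recycling, were also measured. None of 6 cytosolic factors passed, with a median difference of -0.04 and a range of -0.13 to 0.15, and the elongation factor genes Eef1a1 and Eef2 stood at 0.01 and 0.01. None of 10 mitochondrial factors passed, with a median of -0.06 and 9 of 10 negative. Tufm, the mitochondrial elongation factor that binds charged tRNA, stood at -0.09 ± 0.09 (SE), and the release factor genes Mtrf1 and Mtrf1l at -0.19 ± 0.08 and -0.22 ± 0.09 (adjusted p = 0.253 and 0.27, limma with Benjamini-Hochberg adjustment). These last 2 had an unadjusted p of 0.0328 and 0.0385.

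None of 10 genes of mitochondrial tRNA maturation passed either, with a median of -0.03. Of 6 genes of tRNA export, proofreading and selenocysteine synthesis, and of Tarsl2, a further threonyl-tRNA synthetase outside the list of 36, none passed. Tarsl2 stood at 0.14 ± 0.10 (adjusted p = 0.529), Xpot, the tRNA exporter, at 0.01 ± 0.08 and Dtd2, a deacylase that removes wrong amino acids from tRNA, at -0.28 ± 0.09 (adjusted p = 0.164). Nars2 had a second probe set, dimmer at a mean of 6.29, which differed by 0.07 ± 0.07, beside 0.01 ± 0.12 for the brighter one.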
